A study of Mus musculus with 22 samples.

Results

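The genes described here are 6 bone morphogenetic protein ligands (Bmp2, Bmp3, Bmp4, Bmp5, Bmp6 and Bmp7), the secreted antagonists Grem1, Nog and Chrdl1, and the target gene Id1, which make up 10 of the 48440 gene rows of the count table. They were selected on their CPM levels over these same tumour libraries, so their levels and differences are given as a description with no test. CPM are counts scaled to a common library total after TMM adjustment. All 10 passed the filter on low counts, which 18929 genes passed.

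RNA was sequenced from 22 frozen mouse tumours of 3 genotypes to set the fusion oncogene of synovial sarcoma beside loss of Smarcb1, a subunit of the SWI/SNF chromatin remodelling complex that the fusion also joins. The genotype labels read SS18-SSX+/- for 6 libraries, SNF5-/- (the older name of Smarcb1, called Snf5-null here) for 8, and both alterations together for 8, called combined. The titles name Myf5 or TATCre for all but 3 libraries. Total counts per library ran from 8642648 to 25177722.

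The 6 groups were SS18-SSX with Myf5 in the title (libraries N381, N428 and N460), SS18-SSX with no Cre stated (A, B and N2), Snf5-null with TATCre (N1, N49, N43L, N43R and N51), Snf5-null with Myf5 (N30, N31 and N33), combined with TATCre (N49, 78774, 78777 and 78780) and combined with Myf5Cre (N1, N2, N3 and N4). Titles that say Myf5 alone are grouped here as Myf5Cre. As background, Myf5 is a gene of muscle progenitors, and TAT-Cre is a recombinase fused to a cell-penetrating peptide. The sources used here do not give where and at what age Cre acted, the sex or the number of animals. The p-values below therefore measure only the spread between libraries, which may be technical. N43L and N43R share a tag. The strain labels run from C57BL/6 to C57BL/27, a different number for every library, and were not used.

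Smarcb1 was lower in both genotypes labelled for its loss. It was at 47.1 to 111 CPM in SS18-SSX libraries, 10.6 to 26.9 in Snf5-null ones and 0.909 to 3.66 in combined ones. The difference between combined and Snf5-null tumours, -2.66 ± 0.22 (log2, ± SE), is not given by the labels, and its cause was not tested. The Y-linked gene Ddx3y was above 10 CPM in 0 of 6 SS18-SSX, 3 of 8 Snf5-null and 6 of 8 combined libraries. This Y-linked signal thus differed by genotype. Its part in the values below, those of the X-linked Chrdl1 included, was not tested. The descriptions give SS18-SSX Myf5Cre libraries the number series 11264, SS18-SSX libraries with no Cre stated 11361 and all others 13879. Genotype and number series therefore cannot be told apart in any comparison with SS18-SSX tumours. Nor can Cre label and number series within SS18-SSX tumours. By the mean correlation of log2 CPM over all tested genes, Snf5-null TATCre N1 was nearer to the Snf5-null Myf5Cre libraries (r = 0.926) than to its own group (0.888). Combined TATCre N49 had the lowest mean r to its own group (0.866), and the other 3 libraries of that group were nearer to combined Myf5Cre. The 8 leucocyte markers summed to 1460 to 6180 CPM in Snf5-null libraries, 58.5 to 446 in combined and 60.7 to 464 in SS18-SSX libraries. All 8 were lower in combined tumours than in Snf5-null ones by the test used below, as were 20.5% of all genes. Fibroblast markers summed to 5970 to 18400 CPM in Snf5-null, 602 to 9750 in combined and 611 to 14600 in SS18-SSX libraries, and mature muscle markers ran from 86.7 to 16400 CPM in Snf5-null libraries and 156 to 1500 in combined libraries. Endothelial markers, at 151 to 569 CPM, overlapped between all genotypes. The part of these cell types in the values below was not tested, and in bulk tumours fewer cells of a type and less RNA per cell cannot be told apart.

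Bone morphogenetic proteins are secreted dimers that bind type I and type II serine/threonine kinase receptors, whose signal passes through Smad1, Smad5 and Smad9 with Smad4 to genes such as the Id family. Noggin (Nog), gremlin (Grem1) and chordin-like proteins (Chrdl1) bind the ligands outside the cell and keep them from their receptors. In mesenchymal tissue the pathway is known for inducing bone and cartilage and for holding back muscle differentiation.

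The make-up of ligand RNA differed by group. Levels of different ligands were compared per kilobase of exon (CPM per kb). Bmp7 had the highest median in SS18-SSX Myf5Cre (51.5 CPM per kb), SS18-SSX with no Cre stated (55.9) and combined Myf5Cre (63.8), with Bmp4 next in each. Bmp4 stood highest in Snf5-null TATCre (22.5 CPM per kb) and in combined TATCre, where its 60.3 and the 54.9 of Bmp7 overlapped over the 4 libraries. Bmp3 stood highest in Snf5-null Myf5Cre at 103 CPM per kb and made up 85.2% to 93.3% of the ligands' sum in those 3 libraries, against at most 14.8% in any Snf5-null TATCre library. There Bmp4, the leading ligand of the TATCre tumours, was the lowest of the 6 at 0.251 CPM per kb. In SS18-SSX Myf5Cre the ranges of Bmp7, Bmp4 and Bmp5 overlapped, so their order within that group rests on medians.

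**Figure D1:**
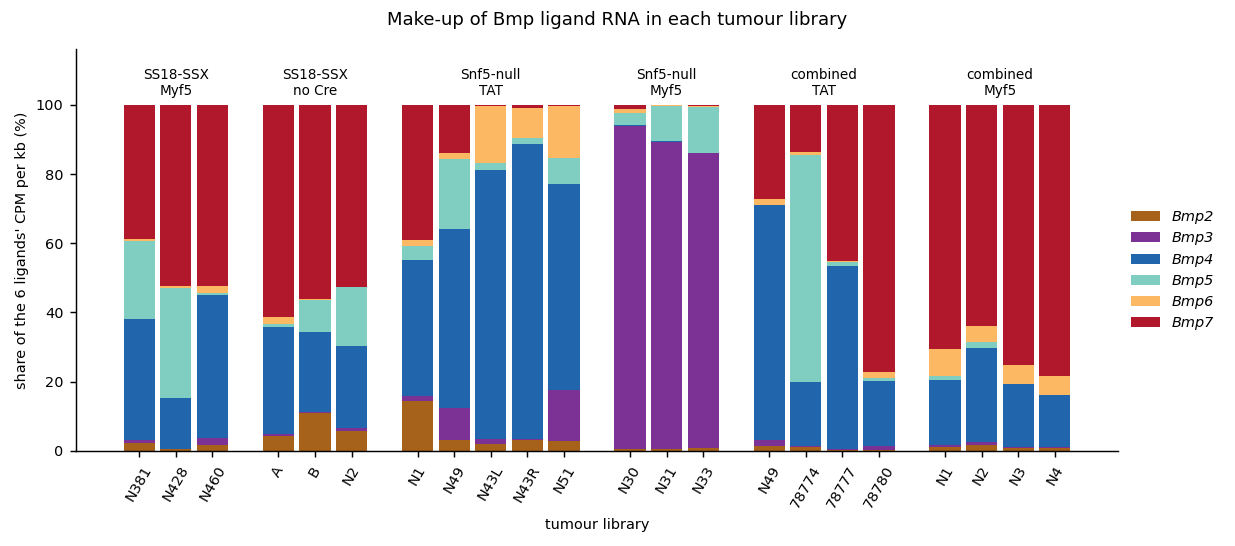
Share of each Bmp ligand in the summed CPM per kb of the 6 ligands (y axis, %), with 1 stacked bar per tumour library and libraries ordered by group (x axis). The 3 Snf5-null Myf5Cre bars are mostly Bmp3 (85.2% to 93.3%), and Bmp7 takes 64% to 78.3% of each combined Myf5Cre bar.

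Gene positions are on the GRCm38 build. Bmp7 (chromosome 2, 172868012 to 172940321, minus strand), a ligand needed in kidney and eye development, was high wherever the fusion was present. It was at 158, 207 and 421 CPM in the SS18-SSX Myf5Cre libraries and at 173, 254 and 225 in those with no Cre stated. Combined TATCre libraries held 144, 91.3, 412 and 296 CPM and combined Myf5Cre libraries 247, 173, 314 and 266. Snf5-null libraries did not overlap with either genotype. Within Snf5-null TATCre, N1 (26.7 CPM) and N49 (24.8) stood apart from N43L (0.441), N43R (1.04) and N51 (0.488), and the Snf5-null Myf5Cre libraries were at 5.03, 0.946 and 1.81 CPM. The difference between combined and Snf5-null tumours was 5.53 ± 0.88 (log2, ± SE, n = 8 and 8), and it was 6.59 ± 1.38 within Myf5Cre and 4.47 ± 0.99 within TATCre. Between combined and SS18-SSX tumours it was 0.03 ± 0.72.

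Bmp4 (chromosome 14, 46383520 to 46390669, minus strand), a close relative of Bmp2 that acts in mesoderm and limb patterning, was nearly silent in a single group. The Snf5-null Myf5Cre libraries held 0.565, 0.697 and 0.25 CPM, from 4 to 14 counts each. All other libraries were at 15 CPM or above. The Snf5-null TATCre group had 15 CPM in N1 and 40.9 to 53.8 in the other 4 libraries. Combined Myf5Cre libraries were at 36.7, 40.9, 42.6 and 28.7 CPM, and combined TATCre at 201, 70.3, 269 and 40.2. SS18-SSX libraries held 79.4, 32.6 and 187 CPM with Myf5Cre and 49.1, 58.2 and 56.5 with no Cre stated. Myf5Cre was thus below TATCre by -6.36 ± 0.78 (log2) in Snf5-null tumours, against -1.96 ± 0.55 in combined tumours, a dependence on genotype of 4.39 ± 0.86. The difference between combined and Snf5-null tumours, 3.97 ± 0.46, came to 6.17 ± 0.78 within Myf5Cre and 1.77 ± 0.5 within TATCre. Against SS18-SSX tumours, combined tumours were at -1.42 ± 0.57 within Myf5Cre and at 1.41 ± 0.59 for TATCre against no stated Cre.

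Bmp3 (chromosome 5, 98854415 to 98884396, plus strand), a divergent ligand known to oppose bone-inducing Bmp signals, had the reverse pattern. Snf5-null Myf5Cre libraries held 762, 1020 and 725 CPM. Of the other 19 libraries, the highest were Snf5-null TATCre N51 (41.5 CPM) and N49 (30.1) and SS18-SSX Myf5Cre N460 (29.9). Snf5-null TATCre N1, N43L and N43R were at 1.8, 2.37 and 0.656 CPM, and combined libraries ran from 1.51 to 17.9. Myf5Cre exceeded TATCre by 5.77 ± 1.17 (log2) in Snf5-null tumours, and by 6.61 without Snf5-null TATCre N51. In combined tumours the same difference was -1.38 ± 1.08, which came to -0.5 without combined TATCre N49. The combined tumours were below Snf5-null tumours by -8.17 ± 1.43 within Myf5Cre and by -1.02 ± 1.01 within TATCre.

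Bmp5 (chromosome 9, 75775364 to 75900310, plus strand), a ligand of skeletal development in the subfamily of Bmp6 and Bmp7, varied from library to library. Combined TATCre 78774 held 439 CPM, against 1.17, 12.7 and 3.15 in N49, 78777 and 78780. Combined Myf5Cre libraries held 4.12, 4.51, 0.31 and 0.182 CPM. SS18-SSX libraries ran from 2.51 to 126 CPM, and the Snf5-null libraries from 1.76 to 63.7, so no pair of genotypes was separate. The difference between combined and Snf5-null tumours was -0.48 ± 1.07, -2.64 without combined TATCre 78774 and 0.22 without Snf5-null TATCre N49. The Cre labels went opposite ways, with -4.34 ± 1.74 within Myf5Cre and 3.39 ± 1.47 within TATCre.

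Bmp2 (chromosome 2, 133552159 to 133562885, plus strand), a bone-inducing ligand, was low in Snf5-null and combined libraries and reached 43.2 CPM in SS18-SSX B. It ran from 1.61 to 43.2 CPM in SS18-SSX libraries, 1.71 to 8.84 in Snf5-null ones and 1.35 to 6.91 in combined ones. SS18-SSX libraries had the higher median, 11.5 CPM, against 3.35 and 3.2, with ranges that overlapped. The difference was -1.86 ± 0.46 for combined and -1.89 ± 0.47 for Snf5-null tumours against SS18-SSX, and 0.03 ± 0.44 between the first pair. Bmp6 (chromosome 13, 38345107 to 38500302, plus strand), known as the ligand that sets hepcidin in iron balance, was at 12.1 to 26.1 CPM in the 4 combined Myf5Cre libraries. It was at 1.17 to 8.27 CPM in combined TATCre, which did not overlap, and at 0.68 to 22.2 elsewhere. Its difference between combined and Snf5-null tumours, 0.97 ± 0.63, was 2.86 ± 1.04 within Myf5Cre and -0.92 ± 0.83 within TATCre.

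**Figure D2:**
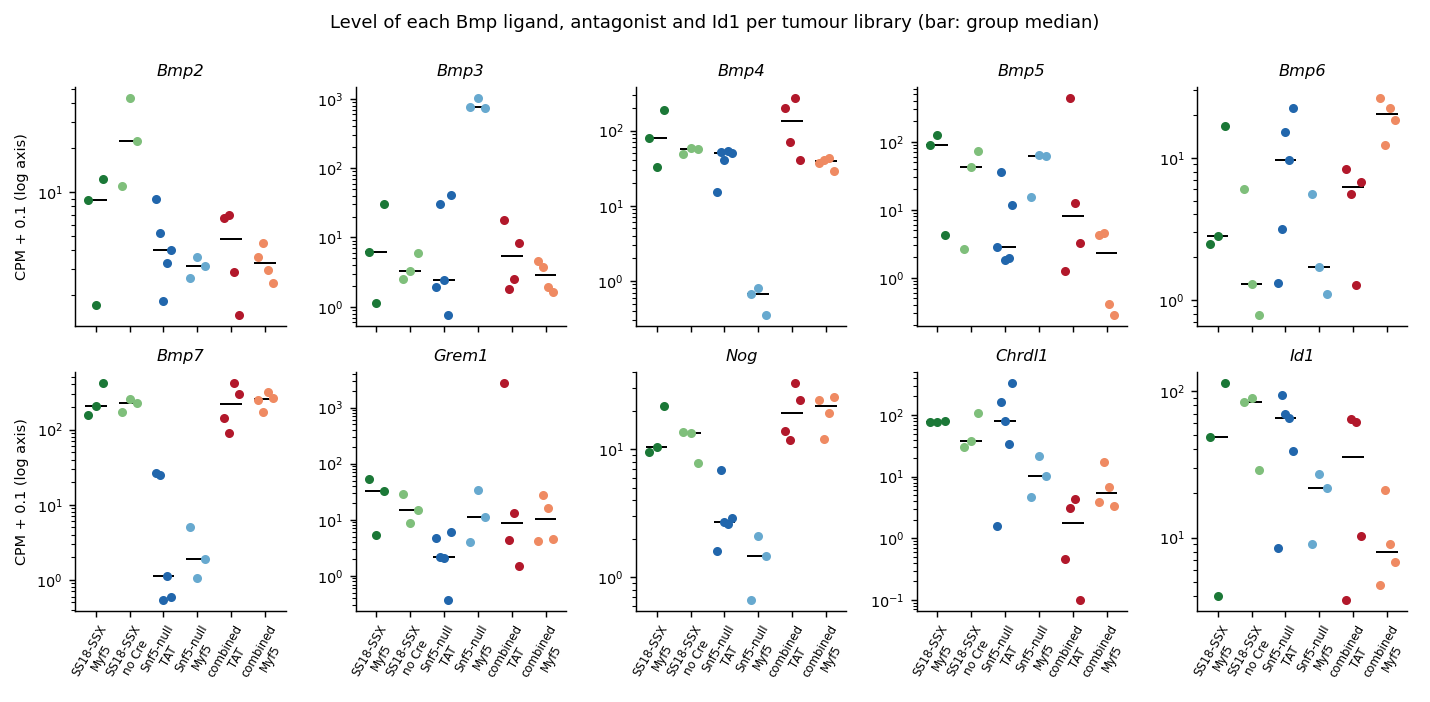
CPM plus 0.1 of each of the 10 genes (y axis, log scale) in the 6 groups (x axis), with a point per tumour library and a bar at the group median. Bmp7 and Nog of the Snf5-null libraries lie below all others (0.441 to 26.7 and 0.565 to 6.84 CPM), Bmp4 falls and Bmp3 peaks in Snf5-null Myf5Cre, and Grem1 has a lone point at 2760 CPM in combined TATCre.

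Among the antagonists, Nog (chromosome 11, 89300638 to 89302332, minus strand), which encodes noggin, a tight binder of Bmp2, Bmp4 and Bmp7, followed Bmp7 across genotypes. Snf5-null TATCre libraries held 1.51, 6.84, 2.59, 2.51 and 2.78 CPM and Snf5-null Myf5Cre libraries 0.565, 1.99 and 1.38. Combined libraries held 13.9, 11.8, 33.1 and 24.3 CPM with TATCre and 24.2, 12, 19 and 25.4 with Myf5Cre. SS18-SSX libraries were at 9.43, 10.3 and 21.7 and at 13.6, 13.4 and 7.77 CPM. Snf5-null libraries were below all others without overlap. The combined tumours exceeded them by 3.31 ± 0.39, or 3.93 ± 0.61 within Myf5Cre and 2.68 ± 0.46 within TATCre.

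Chrdl1 (chromosome X, 143285674 to 143394262, minus strand), a chordin-like binder of Bmp4, was low in combined tumours. Combined TATCre libraries held 0.366, 2.96, 4.26 and 0 CPM and combined Myf5Cre libraries 3.8, 17, 6.67 and 3.27. SS18-SSX libraries did not overlap with them, at 77.8, 76.2 and 81.2 CPM with Myf5Cre and 29.7, 37.8 and 106 with no Cre stated. Snf5-null TATCre spanned the widest range, from 1.45 CPM in N1 through 33.8 in N43R, 80.5 in N43L and 163 in N49 to 333 in N51, and Snf5-null Myf5Cre libraries held 4.63, 21.8 and 10.2. Combined tumours were below SS18-SSX tumours by -4.13 ± 0.85 (log2). Against Snf5-null tumours the difference was -5.98 ± 1.27 within TATCre and -0.67 ± 1.12 within Myf5Cre.

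Grem1 (chromosome 2, 113746164 to 113758646, minus strand), which encodes gremlin, an antagonist of Bmp2, Bmp4 and Bmp7 made by limb and stromal mesenchyme, reached 2760 CPM (37689 counts) in combined TATCre N49. The other combined TATCre libraries held 4.19, 13 and 1.43 CPM, and no library outside that group exceeded 52.7. Snf5-null TATCre libraries, at 0.273 to 5.95 CPM, lay below all 3 SS18-SSX libraries with no Cre stated (8.61 to 29.1) and overlapped with the other 4 groups. The difference between combined and Snf5-null tumours was 3.77 ± 1.22 with all libraries and 0.42 without combined TATCre N49. Against SS18-SSX tumours it went from 2.05 ± 1.19 to -1.31 without that library, and was -1.21 ± 1.57 within Myf5Cre.

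Id1 (chromosome 2, 152736251 to 152737410, plus strand) encodes an inhibitor of basic helix-loop-helix factors and is a direct target of Bmp signalling. Between combined and Snf5-null tumours it did not follow Bmp7 or Bmp4. Between Cre labels it went the same way as Bmp4. Myf5Cre was below TATCre by -1.51 ± 0.96 (log2) in Snf5-null and -1.75 ± 0.91 in combined tumours. SS18-SSX libraries ran from 3.91 to 113 CPM. Snf5-null TATCre libraries held 8.43 CPM in N1 and 38.6 to 93 in the other 4, and Snf5-null Myf5Cre libraries 8.98, 27.1 and 21.8. Combined Myf5Cre libraries held 4.65, 21, 9 and 6.73 CPM, while combined TATCre libraries were split, with 64.5 and 60.9 in 78774 and 78777 and 3.66 and 10.2 in N49 and 78780. All genotypes overlapped. Combined tumours were below SS18-SSX tumours by -1.68 ± 0.67 and below Snf5-null tumours by -0.78 ± 0.63.

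**Figure D3:**
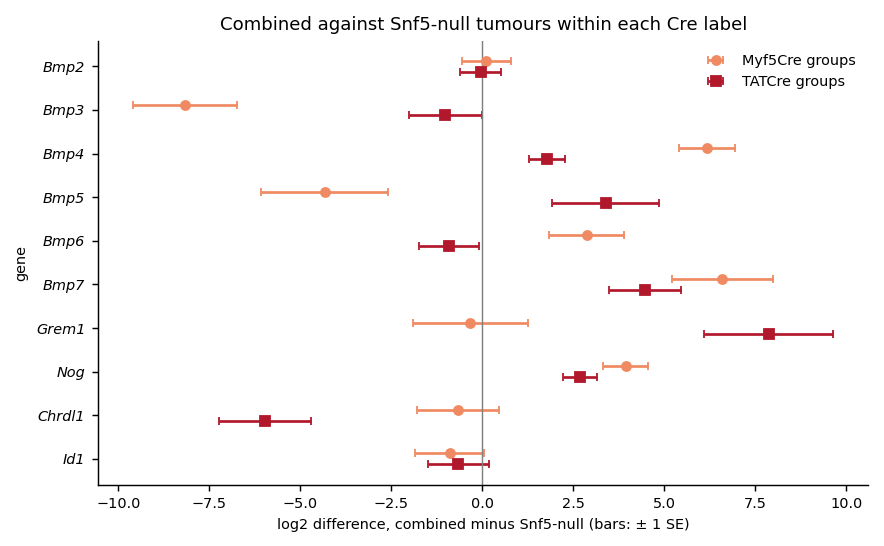
Difference between combined and Snf5-null tumours of each gene (x axis, log2, bars ± 1 SE) within the Myf5Cre groups and within the TATCre groups. Bmp7 and Nog lie above 0 in both, Bmp3 and Chrdl1 each lie farther below 0 under a different Cre label (-8.17 within Myf5Cre and -5.98 within TATCre), and Grem1 within TATCre (7.86) rests on N49.

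Counted by the threshold used for other genes (adjusted p below 0.05), 4 of the 10 were higher and 2 lower in combined tumours than in Snf5-null ones, where 29.1% of all 18929 genes were higher and 20.5% lower. Nog and Bmp7 were the 2 whose libraries did not overlap between these genotypes, as was the case for 9.33% of all genes. Against SS18-SSX tumours 0 of 10 were higher and 3 lower in combined tumours (all genes 23.1% and 21.9%), and 1 was higher and 4 lower in Snf5-null tumours (22.3% and 25.9%). Between Cre labels 1 was higher and 1 lower with Myf5Cre in Snf5-null tumours (1.78% and 3.19%), and 0 and 0 in combined tumours (0.571% and 1.25%). Libraries did not overlap for 1 of the 10 (Chrdl1) between combined and SS18-SSX tumours, against 8.38% of all genes, and for 2 (Bmp7 and Nog) between Snf5-null and SS18-SSX tumours, against 18.3%. For the dependence of the Cre difference on genotype the counts were 1 and 1 (1.32% and 1.1%). The 3 genotype comparisons share their groups in pairs, and since the 10 genes were chosen on these levels nothing is read from the counts.

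The stretch before the transcription start is shown for Bmp4, which was nearly silent in 1 group, and for Grem1 and Bmp5, each with 1 combined TATCre library far above the rest of its group. RefSeq start sites of the GRCm38.p6 build were matched by symbol for 4 of the 10 genes. The 250 bases before the start run 5′ to 3′ on the gene's strand, at chr14:46390670-46390919 for Bmp4, chr2:113758649-113758898 for Grem1 and chr9:75775115-75775364 for Bmp5. Capitals mark CG dinucleotides, the sites of DNA methylation.
Bmp4: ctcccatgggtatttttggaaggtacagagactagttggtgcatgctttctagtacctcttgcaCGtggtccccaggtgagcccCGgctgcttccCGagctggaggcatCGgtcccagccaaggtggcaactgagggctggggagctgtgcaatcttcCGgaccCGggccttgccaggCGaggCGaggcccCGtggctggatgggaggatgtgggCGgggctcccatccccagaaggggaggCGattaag
Grem1: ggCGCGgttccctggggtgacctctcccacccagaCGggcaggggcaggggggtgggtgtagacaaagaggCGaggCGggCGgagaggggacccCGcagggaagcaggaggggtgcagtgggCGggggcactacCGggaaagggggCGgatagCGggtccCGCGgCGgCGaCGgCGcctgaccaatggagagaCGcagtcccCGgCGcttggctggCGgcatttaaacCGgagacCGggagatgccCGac
Bmp5: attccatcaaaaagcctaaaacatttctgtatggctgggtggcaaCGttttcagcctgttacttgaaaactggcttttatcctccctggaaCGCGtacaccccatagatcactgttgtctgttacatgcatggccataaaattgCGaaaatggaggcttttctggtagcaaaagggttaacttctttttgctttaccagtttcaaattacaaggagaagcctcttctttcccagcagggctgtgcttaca
Grem1 had 24 CG dinucleotides, a number reached by 12% of the 32851 promoters in the table, Bmp4 had 11 (35.6%) and Bmp5 had 4 (62.2%). Bmp6 at chr13:38345466-38345715, not printed, had 22 (14.8%), and its RefSeq start lies 609 bases from the start in the gene annotation. The GC-rich motif GGCGCC, known as a binding sequence of the Bmp Smads, which reads the same on both strands and holds a CG itself, was found once in the Grem1 stretch and not in the other 3. Of all promoters 9.59% hold it. Methylation and factor binding were not measured in these tumours.

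Another 65 genes of the pathway were set beside the 10, of which 58 passed the filter on low counts. The lists were chosen with earlier results of these data known, so their shares and medians are a description. These were tested with edgeR's quasi-likelihood test over all 18929 genes with Benjamini-Hochberg adjustment, and "higher" and "lower" below mean past an adjusted p of 0.05. In combined against Snf5-null tumours 17 were higher (29.3%, all genes 29.1%) and 15 lower (25.9%, all genes 20.5%). The median log2 difference was 0.14 against 0.23 over all genes. In combined against SS18-SSX tumours 3 were higher (5.17%, all genes 23.1%) and 22 lower (37.9%, all genes 21.9%), with a median of -0.8 against -0.09. In Snf5-null against SS18-SSX tumours 5 were higher (8.62%, all genes 22.3%) and 26 lower (44.8%, all genes 25.9%), with a median of -0.89 against -0.06. The same all-gene shares apply to the list counts below for these comparisons. For TATCre against SS18-SSX with no Cre stated, 6 were lower in combined tumours (10.3%, against 9.6% of all genes) and 14 in Snf5-null tumours (24.1% against 17.6%). Within Myf5Cre these were 21 (36.2% against 16.9%) and 27 (46.6% against 19.6%). The SS18-SSX groups differ in number series as well as in Cre label, so the part of each cannot be told apart.

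**Figure D4:**
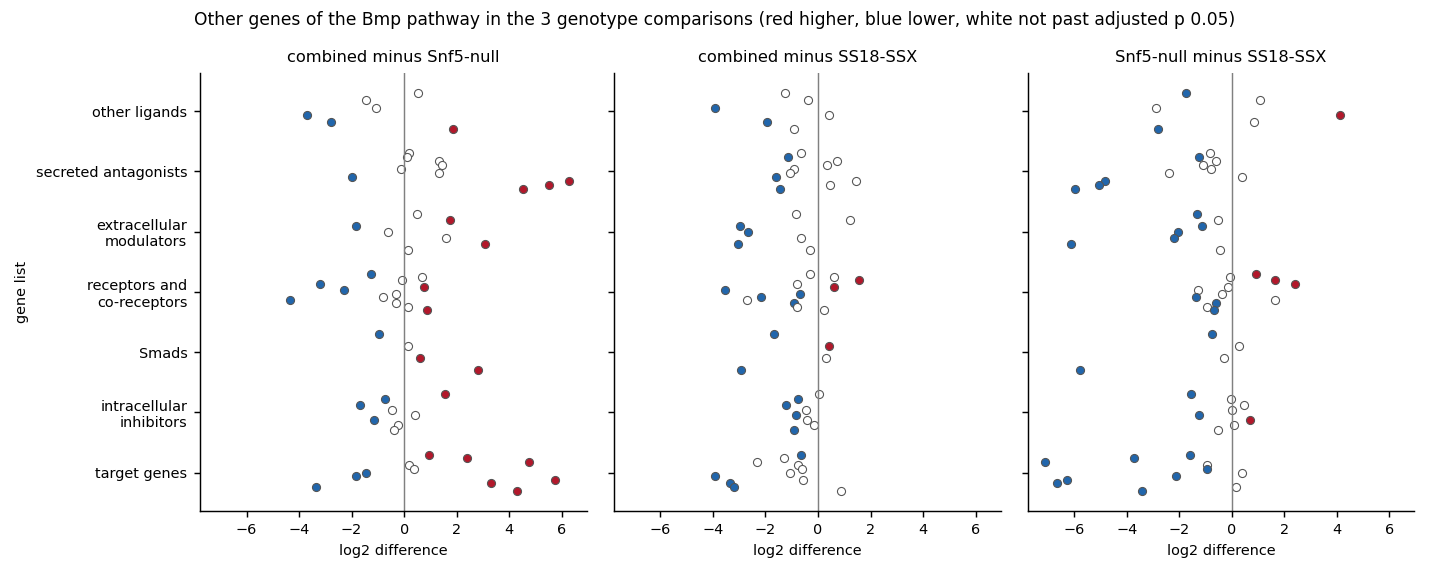
Log2 difference (x axis) of the 58 tested pathway genes, 1 point each, by list (y axis) in the 3 genotype comparisons. Filled points passed adjusted p 0.05 (red higher, blue lower). Of the 11 target genes 6 are red and 3 blue in combined minus Snf5-null, and 8 are blue in Snf5-null minus SS18-SSX. Of all genes 29.1% were higher and 20.5% lower in the first comparison, and 25.9% lower in the second.

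Target genes moved in both directions. Of 11 tested targets, 6 were higher and 3 lower in combined tumours than in Snf5-null ones (median 0.96). Of all genes 29.1% were higher and 20.5% lower there. Msx1, a homeobox gene of limb and craniofacial mesenchyme, was at 15.9 to 728 CPM in combined, 0.896 to 13.1 in Snf5-null and 115 to 443 in SS18-SSX libraries. It was higher in combined tumours than in Snf5-null ones by 5.73 ± 0.69 (log2, adjusted p = 4.15e-06, 5.08 without combined TATCre 78777) and passed within each Cre label (6.26 ± 1.07 and 5.2 ± 0.79 for Myf5Cre and TATCre). Dlx5, a homeobox activator of bone genes, was higher by 4.76 ± 1.21 (adjusted p = 0.00377), from low counts (0 to 13.2 CPM in combined and 0 to 1.43 in Snf5-null libraries). Its difference was 5.95 without Snf5-null Myf5Cre N31, 5.47 without Snf5-null TATCre N43L and 4.11 without combined Myf5Cre N1. Sp7 (osterix), the bone cell factor, was higher by 4.29 ± 0.75 (adjusted p = 0.000163), at 17.7 to 106 CPM in combined TATCre and 2.17 to 10.8 in combined Myf5Cre libraries. Atoh8, Dlx3 and Msx2 were the other 3, and none of them passed within Myf5Cre (adjusted p = 0.174, 0.309 and 0.944).

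Runx2, the factor that starts bone cell formation, went the other way from Sp7 and Dlx5. It was lower in combined tumours than in Snf5-null ones by -3.34 ± 0.66 (adjusted p = 0.000515, -4.05 without combined TATCre N49). Within Myf5Cre the difference was -5.5 ± 1.05 (adjusted p = 0.000748) and within TATCre -1.19 ± 0.82 (adjusted p = 0.27). Snf5-null Myf5Cre libraries held 42.8, 76.9 and 69.3 CPM against 0.242 to 2.83 in combined Myf5Cre. Id3 (-1.46 ± 0.47, adjusted p = 0.0155) and Id4 (-1.82 ± 0.67, adjusted p = 0.0303) were also lower, and neither passed within a single Cre label. The call of Id4 was lost on leaving out any of 7 of the 16 libraries. Id2 was not called (110 and 142 CPM as medians of Snf5-null and combined libraries). Cartilage and bone markers summed to 27 to 216 CPM in Snf5-null, 312 to 2000 in combined and 265 to 6300 in SS18-SSX libraries, with Bglap at 0 in combined TATCre and SS18-SSX Myf5Cre, and their part in the target gene differences was not tested.

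In Snf5-null against SS18-SSX tumours 8 of the 11 targets were lower by edgeR and 0 higher (0 also at an unadjusted p under 0.05). Their median was -2.12, and of all genes 25.9% were lower and 22.3% higher. Dlx5 was lower by -7.1 ± 1.35, Msx2 by -6.64 ± 0.91 and Msx1 by -6.29 ± 0.72, with adjusted p from 3.45e-06 for Msx1 to 0.000336 for Dlx5. Leaving out Snf5-null Myf5Cre N31 or Snf5-null TATCre N43L moved Dlx5 to -8.28 and -7.78. In combined against SS18-SSX tumours 4 were lower by edgeR and 0 higher (0 also at an unadjusted p under 0.05). The median was -1.08, and of all genes 21.9% were lower and 23.1% higher. Id4 was lower by -3.94 ± 0.74 (adjusted p = 0.000416), Msx2 by -3.35 ± 0.74 (adjusted p = 0.00148), Runx2 by -3.2 ± 0.68 (adjusted p = 0.0011) and Atoh8 by -0.64 ± 0.24 (adjusted p = 0.0344, lost on leaving out any of 8 of 14 libraries). Without combined TATCre 78777, Id4 came to -4.82 and Msx2 to -4.14, and without combined TATCre N49 Runx2 came to -3.92. Within the TATCre groups set against SS18-SSX with no Cre stated, Msx2 was at -0.01 ± 0.96 (adjusted p = 0.994), Runx2 at -2 and Id4 at -2.41, all short of the threshold, as was Atoh8 in both Cre labels (adjusted p = 0.13 and 0.183).

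Msx2, a repressor related to Msx1, depended on the Cre label. It was at 17.8 to 36.6 CPM in SS18-SSX and 0.0488 to 0.547 in Snf5-null libraries. Combined Myf5Cre libraries held 0.267, 0.542, 0.31 and 0.0606 CPM, whereas combined TATCre libraries held 20.2, 70 and 2.48 in N49, 78777 and 78780 and 8 counts in 78774. Combined tumours were above Snf5-null tumours by 6.72 ± 1.08 within TATCre (adjusted p = 0.00029) and by -0.13 ± 1.15 within Myf5Cre (adjusted p = 0.944). The difference between these, -6.84 ± 1.54, passed (adjusted p = 0.0253) but was lost without Snf5-null Myf5Cre N31 (adjusted p = 0.118), combined Myf5Cre N3 (0.0514) or combined Myf5Cre N4 (0.0552).

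**Figure D5:**
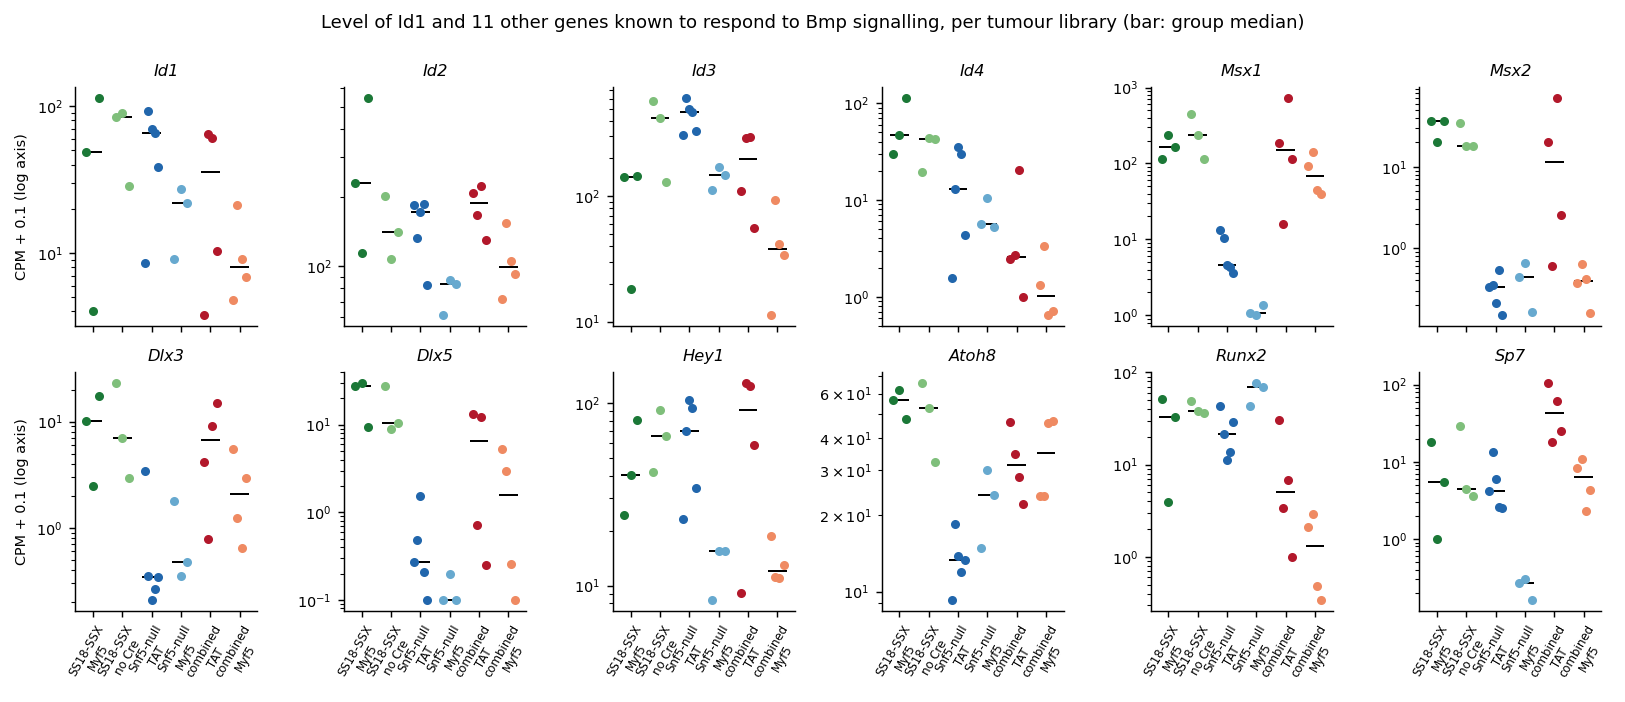
CPM plus 0.1 (y axis, log scale) of Id1 and the 11 other target genes in the 6 groups (x axis), with a point per tumour library and a bar at the group median. Msx1 is low in Snf5-null libraries (0.896 to 13.1 CPM), Msx2 is at the floor in combined Myf5Cre and spread up to 70 CPM in combined TATCre, and Runx2 has its highest median in Snf5-null Myf5Cre.

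Of 6 tested further ligands, 1 was higher and 2 lower in combined tumours than in Snf5-null ones (all genes 29.1% and 20.5%). Gdf5, a joint-forming ligand, was lower by -3.71 ± 0.98 (adjusted p = 0.00488), -2.91 without Snf5-null TATCre N1 and -5.16 without combined TATCre 78777. Within TATCre it did not pass (-1.69 ± 1.25, adjusted p = 0.304). It was highest in the Snf5-null Myf5Cre libraries (53.4, 55 and 35.4 CPM), the group with the most Bmp3, and at 0 to 3.15 in combined libraries. Gdf6, its close relative, stood instead in Snf5-null TATCre, at 90.4, 86.7, 100 and 38.5 CPM in N49, N43L, N43R and N51 and 7.38 in N1, against 0.0625 to 1.86 with Myf5Cre. It was lower in combined tumours by -2.79 ± 0.72 (adjusted p = 0.00421, lost at 0.0534 without Snf5-null Myf5Cre N30) and by -0.74 ± 1.09 within Myf5Cre. Gdf7 was higher by 1.87 ± 0.77 (adjusted p = 0.0498), a call lost on leaving out any of 11 of 16 libraries and within either Cre label. Against SS18-SSX tumours, Gdf5 was higher in Snf5-null tumours (4.13 ± 1.14, adjusted p = 0.00606, 5.56 without SS18-SSX Myf5Cre N381 and 3.35 without Snf5-null TATCre N1). Gdf7 was lower there (-2.8 ± 0.82, adjusted p = 0.00876), as was the oocyte ligand Bmp15 (-1.74 ± 0.6, adjusted p = 0.0228, lost on leaving out any of 4 of 14 libraries). Counts of Gdf7 and Bmp15 were low, at most 83 and 36 in any library. Gdf10 (-3.94 ± 1.31, adjusted p = 0.0204) and Gdf6 (-1.94 ± 0.72, adjusted p = 0.0363) were lower in combined than in SS18-SSX tumours. The call of Gdf10 was lost without SS18-SSX Myf5Cre N381 (-2.38, adjusted p = 0.143), and that of Gdf6 on leaving out any of 9 of 14 libraries. Neither passed for TATCre against no stated Cre (adjusted p = 0.309 and 0.931), nor did Gdf5 (0.161) or Bmp15 (0.918) of Snf5-null tumours, and Gdf7 did not pass within Myf5Cre (0.188).

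Of 10 tested further antagonists, 3 were higher and 1 lower in combined tumours than in Snf5-null ones (all genes 29.1% and 20.5%). Sostdc1, which binds Bmp ligands and blocks Wnt coreceptors, was higher by 5.52 ± 0.95 (adjusted p = 0.000143), at 0.439 to 34.5 CPM against 0 to 1.22, and came to 7.44 without Snf5-null Myf5Cre N30 and 4.66 without combined TATCre 78777. Sost (sclerostin), the antagonist made by bone cells, was at 0 counts in all 3 Snf5-null Myf5Cre libraries, so its fitted difference (6.28 ± 1.57, adjusted p = 0.00374) depends on the prior count. Combined Myf5Cre libraries (415 counts in all) were at least 115-fold higher, with the floor set at 3 counts over the group. Vwc2 (brorin), a brain-expressed chordin-like antagonist, was higher by 4.51 ± 0.74 (adjusted p = 9.54e-05, 5.31 without Snf5-null Myf5Cre N31), with 1 count in the Snf5-null Myf5Cre group against 275 in combined Myf5Cre (ratio 229, counting interval 40.7 to 9060). Within TATCre neither Sost (2.82 ± 1.36, adjusted p = 0.119) nor Vwc2 (1.59 ± 0.73, adjusted p = 0.0998) passed. Nbl1 was lower by -1.97 ± 0.53 (adjusted p = 0.0052), which within Myf5Cre was -0.89 (adjusted p = 0.384). Against SS18-SSX tumours, Vwc2 (-5.96 ± 0.79, adjusted p = 1.29e-05), Sostdc1 (-5.07 ± 0.94, adjusted p = 0.000279), Sost (-4.83 ± 1.58, adjusted p = 0.0185) and Dand5 (-1.24 ± 0.28, adjusted p = 0.00152) were lower in Snf5-null tumours and 0 were higher by edgeR (0 also at an unadjusted p under 0.05). Of these, Vwc2, Sostdc1 and Sost moved to -6.77 without Snf5-null Myf5Cre N31, -7.01 without Snf5-null Myf5Cre N30 and -5.55 without Snf5-null TATCre N49. Dand5 (-1.14 ± 0.28, adjusted p = 0.00281), Nbl1 (-1.59 ± 0.54, adjusted p = 0.024) and Vwc2 (-1.44 ± 0.58, adjusted p = 0.0484) were lower in combined tumours. The calls of Nbl1 and Vwc2 there were lost on leaving out any of 3 and of 8 libraries of 14. For TATCre against no stated Cre, Dand5, Nbl1 and Vwc2 of combined tumours did not pass (adjusted p = 0.146, 0.342 and 0.139), and Sost of Snf5-null tumours was at 0.04 ± 1.45 (adjusted p = 0.986).

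Extracellular modulators shape ligand release. Of 7 tested, 2 were higher and 1 lower in combined tumours than in Snf5-null ones (all genes 29.1% and 20.5%). Against SS18-SSX tumours 3 were lower in combined and 5 in Snf5-null tumours (all genes 21.9% and 25.9%). Tll2, a protease of the Bmp1 and tolloid family, was at 5.21 to 20.7 CPM in SS18-SSX, 0.185 to 7.88 in combined and 0.0995 to 0.33 in Snf5-null libraries. It was lower by -6.12 ± 0.56 in Snf5-null (adjusted p = 4.67e-07) and by -3.04 ± 0.45 in combined tumours (adjusted p = 7.2e-05) than in SS18-SSX tumours, and higher by 3.09 ± 0.48 in combined tumours than in Snf5-null ones (adjusted p = 5.88e-05). Crim1, a membrane protein that tethers Bmp ligands, was at 57.9 to 152, 17.4 to 92.9 and 6.6 to 34.1 CPM in SS18-SSX, Snf5-null and combined libraries. It was lower in combined tumours than in either other genotype (-1.83 ± 0.29 and -2.98 ± 0.31, adjusted p = 5.98e-05 and 4.4e-06). Between combined and Snf5-null tumours neither Tll2 (1.49 ± 0.58, adjusted p = 0.0582) nor Crim1 (-0.83 ± 0.37, adjusted p = 0.093) passed within TATCre. Bmper was higher in combined tumours than in Snf5-null ones (1.73 ± 0.64, adjusted p = 0.0329), lost on leaving out any of 6 of 16 libraries and within either Cre label. Kcp was lower than in SS18-SSX tumours in both (-2.66 ± 0.43 in combined and -2.05 ± 0.43 in Snf5-null, the second not passing within Myf5Cre, adjusted p = 0.0732). Bmp1 (-1.33 ± 0.35) and Tll1 (-2.22 ± 0.85) were lower in Snf5-null tumours, with adjusted p = 0.0371 for Tll1, whose call was lost on leaving out any of 10 of 14 libraries. Neither passed for TATCre against no stated Cre (adjusted p = 0.0756 and 0.0512).

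Of the 12 receptors and coreceptors, 2 were higher and 4 lower in combined tumours than in Snf5-null ones (all genes 29.1% and 20.5%). Acvrl1, the type I receptor of endothelial cells, was lower by -3.2 ± 0.42 (adjusted p = 1.01e-05, -2.47 without Snf5-null Myf5Cre N30). It was at 11.6 to 126 CPM in Snf5-null and 3.94 to 8.94 in combined libraries, and was higher in Snf5-null than in SS18-SSX tumours by 2.41 ± 0.46 (adjusted p = 0.000319, 1.69 without the same library). Bmpr1a, the broadly expressed type I receptor, was higher in combined tumours than in Snf5-null (0.76 ± 0.15, adjusted p = 0.00061) and SS18-SSX tumours (0.59 ± 0.16, adjusted p = 0.00675). Hjv, the Bmp coreceptor of skeletal muscle and liver, was lower in combined tumours than in Snf5-null ones by -4.36 ± 1.32 (adjusted p = 0.0111), lost at 0.073 without Snf5-null Myf5Cre N30 and within either Cre label (0.0594 and 0.11), while mature muscle markers were up to 16400 CPM in Snf5-null and 1500 in combined libraries. Rgmb was higher by 0.88 ± 0.26 (adjusted p = 0.00884), lost without Snf5-null Myf5Cre N31 (0.0711) or N33 (0.0807) and within TATCre (0.134). Acvr2b, the type II receptor through which Bmp3 acts, was higher than in SS18-SSX tumours in combined (1.57 ± 0.42, adjusted p = 0.00621) and Snf5-null tumours (1.63 ± 0.43, adjusted p = 0.00432). Its counts were low, at most 82 in any library. Eng, a coreceptor of endothelium, was lower in both (-2.18 ± 0.47 and -1.38 ± 0.47, adjusted p = 0.00123 and 0.0218), but without SS18-SSX Myf5Cre N460 these came to -0.96 and -0.02. Neo1 was lower in both (-0.93 ± 0.2 and -0.62 ± 0.2, adjusted p = 0.00107 and 0.0158), the second lost on leaving out any of 7 of 14 libraries. Acvr1 was higher (0.93 ± 0.33, adjusted p = 0.0273) and Rgmb lower (-0.67 ± 0.27, adjusted p = 0.0474, lost on leaving out any of 12 of 14) in Snf5-null than in SS18-SSX tumours. Bmpr2 was lower in combined than in SS18-SSX tumours (-0.68 ± 0.27, adjusted p = 0.0438, lost on leaving out any of 9 of 14). Against SS18-SSX tumours Eng, Acvr2b, Neo1 and Rgmb of Snf5-null tumours and Eng, Acvr2b and Bmpr2 of combined tumours did not pass for TATCre against no stated Cre (adjusted p from 0.0554 to 0.358). Acvr1, Eng and Rgmb of Snf5-null tumours and Bmpr1a and Bmpr2 of combined tumours did not pass within Myf5Cre (0.0784 to 0.632).

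Bmpr1b, a type I receptor of cartilage condensations, differed between the Cre groups of Snf5-null tumours except in TATCre N1. It stood at 118, 74.4, 57 and 45 CPM in Snf5-null TATCre N49, N43L, N43R and N51, and at 0.639 in N1. Snf5-null Myf5Cre libraries held 0.452, 0.597 and 0.375 CPM, and combined libraries 0 to 6.86. It was lower in combined tumours than in Snf5-null ones (-2.28 ± 0.91, adjusted p = 0.0436, lost on leaving out any of 13 of 16 libraries). Within TATCre the difference was -6.83 ± 1.45 (adjusted p = 0.00241) and within Myf5Cre 2.26 ± 1.39 (adjusted p = 0.22). Against SS18-SSX tumours it was lower in combined tumours by -3.55 ± 0.92 (adjusted p = 0.00462), lost without SS18-SSX Myf5Cre N381 (-1.93, adjusted p = 0.0674) and within Myf5Cre (-2.3 ± 1.23, adjusted p = 0.152).

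The 4 Smads that carry the signal moved apart. Smad9 was at 2.74 to 49.1 CPM in SS18-SSX libraries, 0.0581 to 0.929 in Snf5-null ones and 0.233 to 26.4 in combined ones. It was lower than in SS18-SSX tumours by -5.77 ± 0.92 in Snf5-null (adjusted p = 7e-05) and by -2.95 ± 0.76 in combined tumours (adjusted p = 0.00427, -3.64 without combined TATCre N49). It was higher in combined tumours than in Snf5-null ones by 2.81 ± 0.79 (adjusted p = 0.007, 2.14 without the same library) and did not pass within Myf5Cre (1.54, adjusted p = 0.325). Smad1 was lower in combined tumours than in Snf5-null (-0.95 ± 0.19, adjusted p = 0.000616) and SS18-SSX tumours (-1.68 ± 0.2, adjusted p = 1.61e-05). It was also lower in Snf5-null than in SS18-SSX tumours (-0.74 ± 0.2, adjusted p = 0.00626), lost without SS18-SSX Myf5Cre N428 (-0.33, adjusted p = 0.137), SS18-SSX B (0.0727) or Snf5-null Myf5Cre N33 (0.0541). Smad5 was higher in combined tumours than in Snf5-null ones (0.62 ± 0.16, adjusted p = 0.00329), and Smad4, the shared partner, was higher in combined than in SS18-SSX tumours (0.41 ± 0.12, adjusted p = 0.0087). For TATCre against no stated Cre, Smad9 (adjusted p = 0.484) and Smad4 (0.231) of combined and Smad1 (0.165) of Snf5-null tumours did not pass.

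Of 8 intracellular inhibitors, 1 was higher and 3 lower in combined tumours than in Snf5-null ones (all genes 29.1% and 20.5%). Bambi, a decoy receptor that Bmp signalling is known to induce, was higher by 1.57 ± 0.4 (adjusted p = 0.00359), with 2.3 ± 0.51 within TATCre (adjusted p = 0.00344) and 0.84 ± 0.59 within Myf5Cre (adjusted p = 0.285). In combined TATCre libraries it stood at 91.2 and 86.6 CPM in N49 and 78777 and at 9.43 and 14.8 in 78774 and 78780. The first 2 also had the most Bmp4 and Msx2 of that group. Id1 did not share this order, at 3.66 CPM in N49, the lowest of the group, 60.9 in 78777 and 64.5 in 78774. Smurf1 (-1.13 ± 0.18), Skil (-1.69 ± 0.29) and Ski (-0.73 ± 0.19) were lower, with adjusted p from 6.5e-05 for Smurf1 to 0.00388 for Ski, which did not pass within Myf5Cre (0.12). Against SS18-SSX tumours 0 were higher by edgeR (0 also at an unadjusted p under 0.05) and 4 lower in combined tumours. Of all genes 23.1% were higher and 21.9% lower. The 4 were Skil (-1.22 ± 0.3), Tob1 (-0.9 ± 0.24), Ski (-0.77 ± 0.2) and Smad7 (-0.85 ± 0.19), with adjusted p from 0.00177 for Smad7 to 0.00562 for Tob1. In Snf5-null against SS18-SSX tumours Smurf1 was higher (0.7 ± 0.19, adjusted p = 0.00592), and Bambi (-1.55 ± 0.42, adjusted p = 0.0052) and Smad7, the feedback inhibitor of the receptors (-1.26 ± 0.2, adjusted p = 6.13e-05), were lower. For TATCre against no stated Cre, Smad7, Ski, Skil and Tob1 of combined tumours (adjusted p from 0.0563 to 0.203) and Bambi (0.135) and Smurf1 (0.397) of Snf5-null tumours did not pass.

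Between Cre labels within Snf5-null tumours, 9 of the 58 (15.5%) were lower with Myf5Cre by edgeR. The count of higher genes was 0 (4 at an unadjusted p under 0.05, and 0 by DESeq2). Of all genes 1.78% were higher and 3.19% lower. Among the 9 were the antagonists Vwc2, Fstl3, Nbl1 and Fstl1, the ligands Gdf6 and Bmp15, the receptor Bmpr1b and the target Sp7. Fstl1, a secreted glycoprotein, was at 2110, 2723, 3720 and 2290 CPM in Snf5-null TATCre N49, N43L, N43R and N51 but at 229 in N1 and at 231, 91.9 and 75.1 with Myf5Cre. Gdf6 (-6.4 ± 1.29, adjusted p = 0.00987), Nbl1 (-4.65 ± 0.93, adjusted p = 0.00947), Vwc2 (-6 ± 1.25, adjusted p = 0.0117) and Fstl3 (-5 ± 1.13, adjusted p = 0.017) lost their calls only without Snf5-null Myf5Cre N31 or N33, which left 2 libraries in that group. Bmpr1b (-6.93 ± 1.66, adjusted p = 0.0217) and Sp7 (-5.2 ± 1.2, adjusted p = 0.0183) also lost theirs without N30. Bmp15 (-3.58 ± 0.94, adjusted p = 0.0352) and Fstl1 (-4.06 ± 1.11, adjusted p = 0.0415) lost theirs on leaving out any of 5 and of 7 of the 8 libraries. Without Snf5-null TATCre N1 the count of lower genes was 15, and it was 0 without N31 or without N33.

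Within combined tumours 0 were higher by edgeR (2 at an unadjusted p under 0.05, and 1 by DESeq2) and 3 lower with Myf5Cre. Of all genes 0.571% were higher and 1.25% lower. Msx2 was lower by -6.27 ± 1.16 (adjusted p = 0.0117, lost at 0.0593 without combined Myf5Cre N4), Hey1, a Notch and Bmp target, by -2.59 ± 0.63 (adjusted p = 0.0405) and Bambi by -2.57 ± 0.56 (adjusted p = 0.0278). Hey1 and Bambi lost their calls on leaving out any of 6 and of 4 of the 8 libraries. The count was 1 without combined Myf5Cre N1 or N2 and 0 without N4. The Cre difference depended on genotype for Bmpr1b (9.08 ± 2.03, adjusted p = 0.0247), Vwc2 (5.85 ± 1.45, adjusted p = 0.0392) and Msx2, given above. Of all genes 1.32% were higher and 1.1% lower by this measure. Leaving out any of 4 of the 16 libraries ended the call of Bmpr1b, and any of 11 that of Vwc2.

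For each of the 10 genes the 2 tested genes with the highest Pearson r of log2 CPM over the 22 libraries were taken. These values are a description with no p, since libraries share genotype and Cre groups. The closest were Cdh22 (r = 0.98) and Foxb1 (0.975) for Bmp7, Pdgfra (0.932) and Myl9 (0.905) for Bmp4, Pfn4 (0.916) and Ccdc85c (0.914) for Nog, Amtn (0.894) and Sema3g (0.889) for Bmp3, and Penk (0.881) and Otud7b (0.875) for Chrdl1. Pdgfra is also in the fibroblast marker list. Weaker were Slc18b1 (0.824) and mt-Tq (0.81) for Bmp2, Vdr (0.817) and Tmem255a (0.769) for Grem1, Id3 (0.796) and Ccdc3 (0.788) for Id1, Pgm1 (0.774) and Copz2 (0.743) for Bmp6, and Hmgcll1 (0.771) and Lrrn3 (0.731) for Bmp5. Over the 16 libraries without SS18-SSX, Foxb1 stood highest for Bmp7 (0.982) and Pdgfra for Bmp4 (0.934), while other genes came to the top for the remaining 8.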

How the data were processed

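Poly(A) RNA was sequenced from 22 mouse tumours with TruSeq Stranded mRNA libraries, per the labels' protocols. The authors deposited whole-number read counts per Ensembl gene. Per the submitters' processing notes, the tools were STAR 2.7.5a, cutadapt, RSEM, featureCounts and DESeq2 with the mm10 build, and no step is assigned to any of them. The treatment of reads shared by near-identical genes is not stated there.

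The counts were filtered with filterByExpr (minimum count 10, minimum total 15), scaled by TMM and tested in R 4.3.3 with edgeR 4.0.16 by the quasi-likelihood test on the 6 groups, with Benjamini-Hochberg adjustment over 18929 genes and a threshold of 0.05. Genotype comparisons weighted both Cre groups equally. The SE is the log2 difference divided by the square root of its F value. DESeq2 1.42.0 was an alternative. The code was tested on simulated data. CPM per kb used exon lengths of GENCODE M21 on GRCm38, and figures used matplotlib 3.10.9.

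The 10 genes and all gene lists were chosen with earlier results of these data known. Named pathway genes were, in each comparison and list, the 3 called genes with the largest change in each direction and every called gene of a list with 5 or fewer calls. A result that this rule would name is not reported here. No pair of replicate libraries agreed within sampling noise (lowest chi-square per degree of freedom 39.7). Each library held 8642648 to 25177722 counts. Intervals and floors cover counting error only.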

Additional observations from a re-analysis of the deposited data

Results flagged for a closer look

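Of 30 gene and group combinations with 4 or 5 libraries, 4 held a library far from the others of its group. The genes were selected on these same CPM levels, so the flag's nominal rate of about 1 in 20 does not apply. The flags are a description, and no excess over chance is read from their number. Grem1 was at 2760 CPM in combined TATCre N49, with the other 3 at 1.43 to 13. Bmp5 was at 439 CPM in combined TATCre 78774, with the other 3 at 1.17 to 12.7. Bmp5 was also at 36.5 CPM in Snf5-null TATCre N49, against 1.76 to 11.5 in the other 4, and Nog at 6.84 CPM in the same library, against 1.51 to 2.78.

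The difference between Cre labels depended on genotype for 3 pathway genes by edgeR's quasi-likelihood test of the difference itself. It was 5.85 ± 1.45 (log2, adjusted p = 0.0392) for Vwc2, 9.08 ± 2.03 (adjusted p = 0.0247) for Bmpr1b and -6.84 ± 1.54 (adjusted p = 0.0253) for Msx2. Each of the 3 lost its call when certain single libraries were left out, from 3 of 16 for Msx2 to 11 of 16 for Vwc2.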

How the results depend on the processing

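Among the limits are the size and spread of the groups, which hold 3 to 5 libraries. With all libraries, 17 pathway genes were higher and 15 lower in combined tumours than in Snf5-null ones (all genes 29.1% and 20.5%). The Myf5Cre groups alone gave 11 and 8 (all genes 15.7% and 15.3%), and the TATCre groups alone gave 9 lower (all genes 13.9%). Against SS18-SSX tumours, the TATCre groups with the SS18-SSX group of no stated Cre gave 6 lower in place of 22 for combined tumours and 14 in place of 26 for Snf5-null tumours. Without the low-count filter 1 in place of 3 was higher in combined than in SS18-SSX tumours.

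Counts between Cre labels moved most. In Snf5-null tumours the 9 lower genes became 17 by DESeq2, 0 with N31 and N33 summed to 1 library, and 17 with Snf5-null TATCre N1 and combined TATCre N49 both left out, an alternative chosen after seeing the data. The 0 higher genes became 1 without the filter and 1 with those 2 libraries left out. In combined tumours DESeq2 gave 1 higher and 12 lower in place of 0 and 3. For the dependence on genotype, 2 higher and 1 lower became 5 and 4 by DESeq2, and 0 and 0 with N31 and N33 summed. The higher count was 1 with N43L and N43R summed and 7 with those 2 libraries left out. The cause of these changes was not tested.

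Leaving out each library in turn gave 14 to 22 higher and 12 to 17 lower in combined against Snf5-null tumours, 3 to 5 and 17 to 25 in combined against SS18-SSX (5 higher without SS18-SSX Myf5Cre N460), and 5 to 7 and 19 to 27 in Snf5-null against SS18-SSX. Between Cre labels it gave 0 to 1 and 0 to 15 in Snf5-null tumours, with 1 higher without Snf5-null TATCre N1 or Snf5-null Myf5Cre N30. It gave 0 lower to 4 lower in combined tumours, and 0 to 4 higher and 0 to 3 lower for the dependence on genotype.

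Among calls, direction reversed within the Myf5Cre groups for Bmpr1b (2.26) and Msx2 (-0.13), and for Grem1 (-0.33), between combined and Snf5-null tumours. For Snf5-null TATCre against SS18-SSX with no Cre stated, direction reversed for Bmp15 (0.12), Sost (0.04) and Id2 (0.02). Other values of the 10 genes also turned sign. Between combined and Snf5-null tumours these were Bmp2 (-0.05), Bmp5 (3.39) and Bmp6 (-0.92) within TATCre. Against SS18-SSX tumours within Myf5Cre they were combined Grem1 (-1.21) and Bmp7 (-0.07) and Snf5-null Bmp6 (-1.42). For TATCre against SS18-SSX with no Cre stated they were combined Bmp3 (0.96) and Bmp5 (1.54) and Snf5-null Chrdl1 (1.08). With genotype alone, Bmp5 came to 1.25 between combined and Snf5-null tumours and Chrdl1 to 0.25 between Snf5-null and SS18-SSX tumours. RLE scaling moved the median of all genes between combined and Snf5-null tumours from 0.235 to 0.12 and turned Bmp2 there from 0.03 to -0.07 and Bmp7 between combined and SS18-SSX tumours from 0.03 to -0.05. No paired analysis was possible because no pair of groups shares 2 or more replicate tags in the labels.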
